A study of Mus musculus with 4 samples.

Results

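The genes described here are histone lysine methylases, histone lysine demethylases and subunits of Polycomb repressive complex 1 (PRC1), together with the deubiquitylase pair Bap1 and Asxl1. They were chosen by name, as 39 gene symbols, to see whether these chromatin modifiers differ where Ezh2 is deleted. Of the 39, 38 were read from all 4 files, among 22472 genes used, and Setd1b was not analysed here. RNA was sequenced from 4 groups of mouse spleen cells on the C57BL/6 background, with 1 library in each. KO iNKT and KO CD44hi came from Ezh2fl/fl CD4-Cre mice, and WT iNKT and WT CD44hi from wild-type mice, where iNKT stands for invariant natural killer T cells and CD44hi for CD4+ T cells with high CD44. CD4-Cre expresses Cre recombinase in T lineage cells, so the deletion is not limited to either sorted population. Age, sex, the number of mice behind a library and whether WT mice carried a floxed allele or Cre are not given in the sources used here. Cells were sorted on the T cell receptor beta chain with lipid-loaded CD1d tetramers (iNKT) or with CD44 and CD4 (CD44hi).

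EZH2 is the enzyme of the Polycomb complex PRC2 and methylates histone H3 at H3K27. PRC1 reads that mark through chromobox (CBX) proteins and places ubiquitin on histone H2A through a RING1 or RNF2 ligase paired with 1 PCGF protein, and the PR-DUB complex of BAP1 and an ASXL protein takes that ubiquitin off. Canonical PRC1 holds a CBX and a PHC protein, whereas variant PRC1, such as the form with PCGF1 and KDM2B, is recruited without the H3K27 mark. The other enzymes described here write or erase methyl groups on other lysines of histone H3, which accompany transcription (H3K4, H3K36 and H3K79) or silencing (H3K9), and KDM6B erases the mark that EZH2 writes.

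Levels are FPKM, which divides fragments by transcript length and by depth, so that genes can be compared within a library. Genes under 1 FPKM in both libraries of a comparison were not counted as measured in it, and a measured gene was called when log2(FPKM + 1) differed by 2-fold or more, a scale that understates differences of low genes. With 1 library per group there is no replicate check, no test and no p-value. Ratios are plain ratios of FPKM, and their 95% exact (Clopper-Pearson) intervals come from the fragments estimated behind each value and cover counting error only. Estimated depth, relative to WT iNKT, was 1.09 in KO iNKT, 4.91 in KO CD44hi and 3.67 in WT CD44hi, and 1 fragment in a 2 kb transcript was worth 0.0972 FPKM in KO iNKT, 0.105 in WT iNKT, 0.0215 in KO CD44hi and 0.0287 in WT CD44hi. In bulk RNA, fewer cells of a type and less RNA per cell cannot be told apart.

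Ezh2 itself was at 16.8 FPKM in KO iNKT, 15.3 in WT iNKT, 18.5 in KO CD44hi and 28.9 in WT CD44hi. A whole-gene value keeps reads from exons outside the floxed part, so it does not check the genotype labels. All 8 T cell markers and all 5 iNKT markers read were above 1 FPKM in every library. By a plain ratio past 1.5-fold, 3 of the 8 T cell markers were lower and 0 higher in KO CD44hi than in WT CD44hi. Over all genes at 5 FPKM or more, these shares were 3.54% and 5.46%. The 3 were Cd4 with a ratio of 0.622, Cd5 with 0.648 and Cd2 with 0.551, while Cd3d was at 1.32. In the iNKT pair 1 of the 8 was higher and 1 lower by this rule. Between genotypes the iNKT markers were uneven. Zbtb16, the lineage's transcription factor, was at 63.1 FPKM in KO iNKT, 28.2 in WT iNKT, 41.4 in KO CD44hi and 4.30 in WT CD44hi. Il2rb was at 198, 814, 102.3 and 178 FPKM in that order. The other markers moved in opposite directions in the cell types. Cxcr6 was at 94.6, 468, 127 and 69.6 FPKM in that order. Klrb1c was at 96.2, 177, 58.5 and 14.9 FPKM, and Slamf6 at 151, 74.3, 76.9 and 94.2. Of the 5, 4 were called higher in WT iNKT than in WT CD44hi. Between the KO libraries 0 were called, while 4 were higher in iNKT by the 1.5-fold rule. B cell markers (8 genes) summed to 1.72 FPKM in KO iNKT and 1.55 in WT iNKT, with 2 and 4 of the 8 listed at 0, and to 88.7 in KO CD44hi and 59.8 in WT CD44hi, with none at 0. Myeloid markers (11 genes) summed to 17.4, 35.0, 730.3 and 453 FPKM in the same order of libraries, with none at 0. Plasmacytoid dendritic cell markers (8 genes) summed to 88.1 FPKM in KO iNKT (3 at 0), 142 in WT iNKT (4 at 0), 641 in KO CD44hi and 143 in WT CD44hi. The iNKT sums came almost wholly from Bst2 (78.7 FPKM in KO and 101 in WT) and Ccr9 (8.81 and 41.0), with the other 6 genes at 0.397 FPKM or less, whereas in both CD44hi libraries all 8 were above 1 FPKM. The 5 red cell genes summed to 17.7, 18.7, 721 and 149 FPKM, and 1 of them was at 0 in KO iNKT. The part these cells play in the CD44hi values below was not tested. The Y-linked genes Ddx3y and Eif2s3y were at 11.5 and 22.7 FPKM in WT CD44hi and at 0.00445 FPKM or less in the other 3 libraries, while Xist, expressed from the inactive X chromosome, was at 76.8 FPKM in KO iNKT, 55.3 in WT iNKT, 80.02 in KO CD44hi and 46.8 in WT CD44hi. A difference in the sex of the mice therefore cannot be told apart from genotype in the CD44hi pair, nor from cell type in the WT pair.

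Nearly all of the 38 genes were expressed at a middling level in every library. The median was 14.8 FPKM in KO iNKT, 13.7 in WT iNKT, 15.0 in KO CD44hi and 16.2 in WT CD44hi, beside medians of 12.9, 12.9, 12.1 and 12.3 over all genes at 1 FPKM or more. Cbx7 and Ehmt2 were the highest pair in all 4 libraries. Suv39h2, an H3K9 methylase, was the lowest in all 4, at 0.855 FPKM in KO iNKT, 0.806 in WT iNKT, 0.821 in KO CD44hi and 0.856 in WT CD44hi. It therefore never reached 1 FPKM, and the other 37 genes were measured in every comparison.

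**Figure D1:**
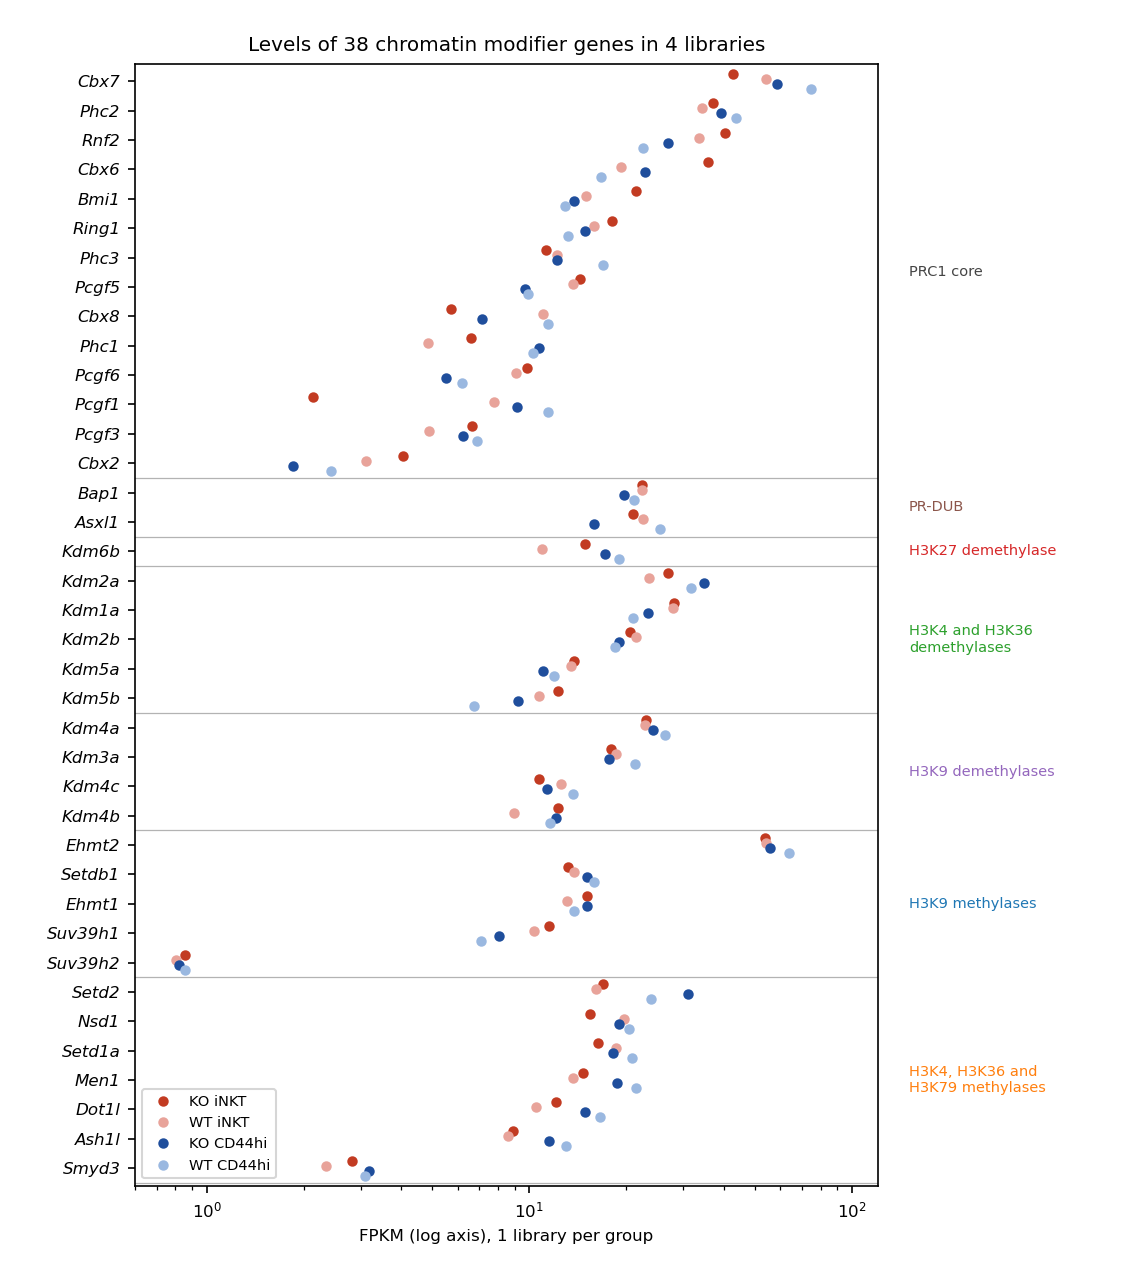
FPKM of 38 genes (rows, by role) on a log axis, with 1 point per library. The 4 points of most genes lie close together, while Pcgf1 has its KO iNKT point at 2.14 FPKM, apart from the other 3, which lie at 7.80 to 11.4.

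KO iNKT was compared with WT iNKT, and KO CD44hi with WT CD44hi, to see whether these genes differ where Ezh2 is deleted. In KO iNKT, 1 of 37 measured genes was called lower (2.70%; 3.34% of all 10816 measured genes) and 0 were called higher (6.08% of all). In KO CD44hi, 0 of 37 were called higher and 0 lower, against 2.44% and 1.14% of 11352 genes. By the wider rule of a plain ratio past 1.5-fold among genes at 5 FPKM or more, 1 of 35 genes was higher and 2 lower in KO iNKT (12.8% and 8.9% of 8381 genes), and 0 higher and 2 lower in KO CD44hi (5.46% and 3.54% of 8570). The median log2 difference was 0.07 in the iNKT pair and -0.10 in the CD44hi pair, beside 0.05 and 0.01 over all measured genes. The median absolute difference was 0.18 in the iNKT pair (0.27 over all genes) and 0.14 in the CD44hi pair (0.16 over all genes). The log2 difference was above 0 in 25 of 37 genes in the iNKT pair and in 14 of 37 in the CD44hi pair. Over all measured genes it was above 0 in 6046 of 10816 and in 5946 of 11352.

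**Figure D2:**
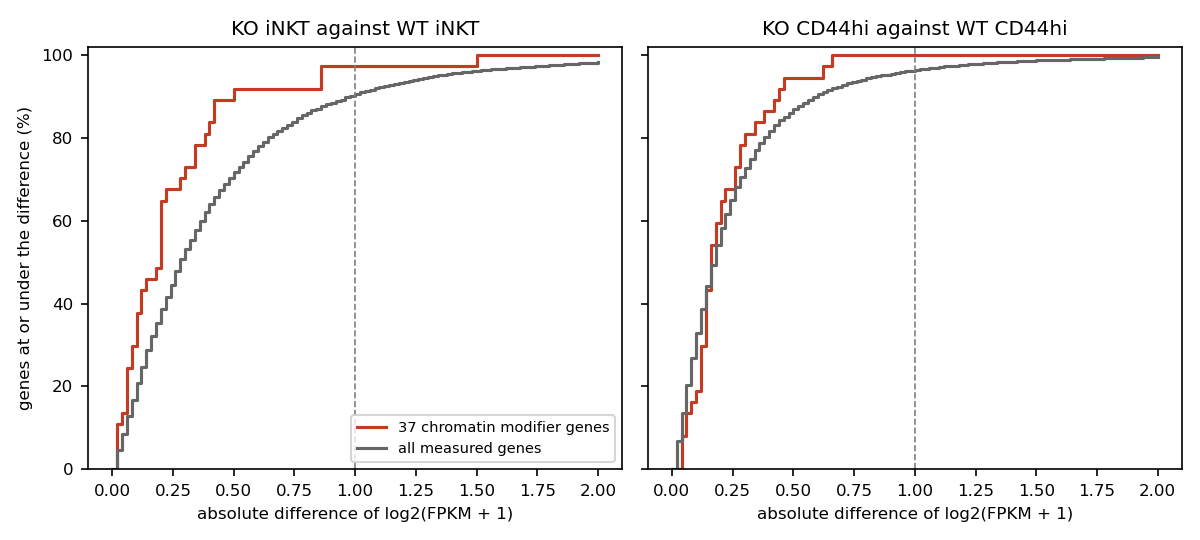
Share of genes (%) at or under each absolute difference of log2(FPKM + 1) between KO and WT, for the 37 genes and for all measured genes, with the 2-fold threshold dashed. In the iNKT pair the curve of the 37 genes lies above that of all genes (medians 0.18 and 0.27). In the CD44hi pair the medians are close (0.14 and 0.16) but the curves cross. There the curve of the 37 genes lies below that of all genes up to 0.14 (18.9% against 32.8% at 0.1) and above it from 0.16 on.

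In the PRC1 complex, the PCGF proteins, which set the type of PRC1, held the single called gene. Pcgf1, the PCGF protein of the variant complex with KDM2B (GRCm38 chromosome 6, 83077869 to 83080855), was at 2.14 FPKM in KO iNKT, 7.80 in WT iNKT, 9.14 in KO CD44hi and 11.4 in WT CD44hi. It was lowest in KO iNKT, with a KO to WT ratio of 0.274 (95% counting interval 0.109 to 0.555) in iNKT and 0.799 (0.646 to 0.992) in CD44hi. The iNKT values rest on about 9 fragments in KO and 32 in WT, since the transcript is short (860 bases). Its difference of effects, iNKT minus CD44hi, was -1.19 on the log2 scale, 1 of 37 genes called lower in this way (4.53% of 10453 genes measured in both pairs) beside 0 called higher (5.64%).

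The other 4 PCGF genes among the 39 names stayed within 1.5-fold between genotypes. Bmi1, the PCGF protein best known from stem cell self-renewal, was at 21.4 FPKM in KO iNKT, 15.0 in WT iNKT, 13.8 in KO CD44hi and 12.9 in WT CD44hi, with a KO to WT ratio of 1.43 (1.21 to 1.70) in iNKT and 1.07 (0.967 to 1.17) in CD44hi. Pcgf3 was at 6.65, 4.88, 6.23 and 6.89 FPKM in the same order, Pcgf5 at 14.4, 13.6, 9.72 and 9.89, and Pcgf6 at 9.83, 9.09, 5.53 and 6.21. Pcgf2, which is outside the 39 names and is added here to complete the family, was at 5.84, 9.52, 4.87 and 7.11 FPKM, with a ratio of 0.614 (0.428 to 0.886) in iNKT. Pcgf1 thus made up 3.55% of the summed FPKM of the 6 PCGF genes in KO iNKT, 13.0% in WT iNKT, 18.5% in KO CD44hi and 21.0% in WT CD44hi. The share of Bmi1 was 35.5%, 25.0%, 28.0% and 23.8% in that order, and the family sum was close in the iNKT pair, at 60.3 FPKM in KO and 59.9 in WT.

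The CBX genes, whose chromodomains bind methylated H3K27, did not move as a family. Cbx7 and Cbx8 were lower and Cbx6 higher in KO in both cell types, and Cbx2 differed in opposite directions. Cbx8 was at 5.72 FPKM in KO iNKT, 11.1 in WT iNKT, 7.14 in KO CD44hi and 11.4 in WT CD44hi. Both KO libraries lay below both WT libraries, with ratios of 0.517 (0.401 to 0.657) in iNKT and 0.625 (0.560 to 0.698) in CD44hi. Cbx6 was at 35.8, 19.3, 22.9 and 16.7 FPKM in the same order, so both KO libraries lay above both WT libraries, with ratios of 1.85 (1.60 to 2.15) and 1.37 (1.26 to 1.49). Such an order was not particular to these genes. Both KO libraries also lay below both WT libraries for Asxl1, Kdm3a, Kdm4c, Setd1a and Nsd1, and above them for Ehmt1 and Kdm4b. How often it occurs over all genes was not counted, so the order by itself is not read here as a result about any of these genes. Cbx7, the highest of the 4 CBX genes given here in all 4 libraries, was at 42.7, 54.2, 58.7 and 74.4 FPKM, with ratios of 0.788 (0.708 to 0.877) and 0.789 (0.755 to 0.826). Cbx2 was low, at 4.05, 3.12, 1.86 and 2.43 FPKM, with ratios of 1.299 (0.911 to 1.86) and 0.762 (0.609 to 0.953).

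Cbx8 lies on chromosome 11 (119036305 to 119040969, minus strand) near Cbx2 (119022962 to 119031270, plus strand). As a share of the summed FPKM of the 4 CBX genes given here, Cbx6 took 40.5% in KO iNKT, 22.01% in WT iNKT, 25.2% in KO CD44hi and 15.9% in WT CD44hi. The share of Cbx7 was 48.4%, 61.8%, 64.8% and 70.9%, and that of Cbx8 6.49%, 12.6%, 7.89% and 10.9%, in the same order.

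**Figure D3:**
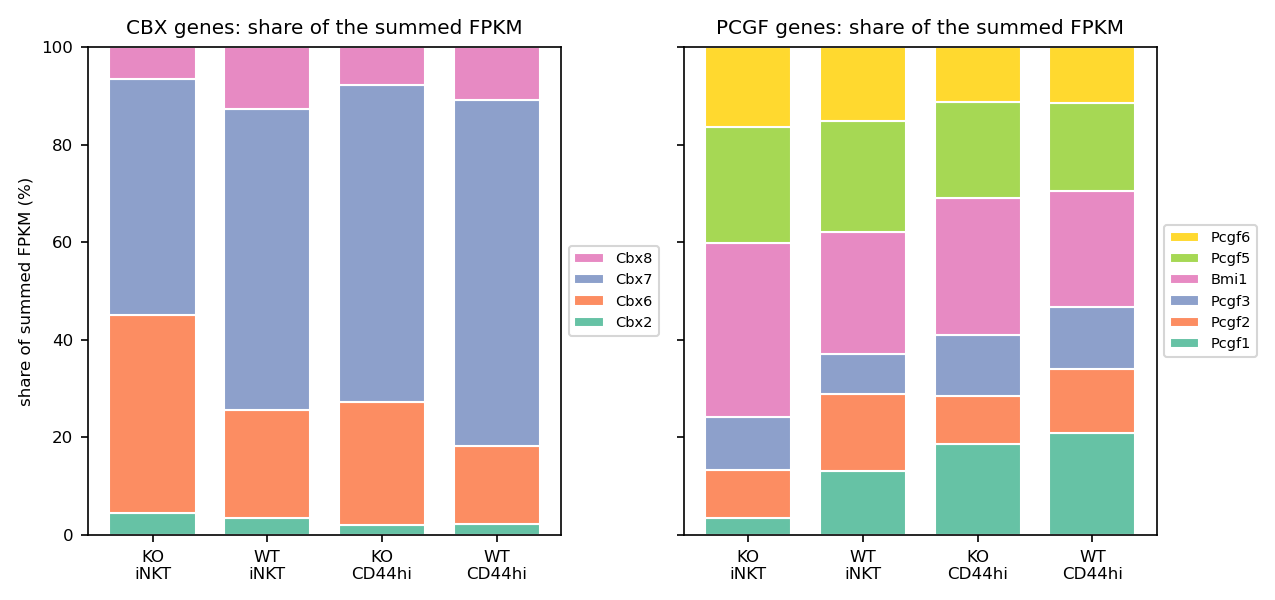
Share (%) of the summed FPKM of 4 CBX genes (left) and the 6 PCGF genes (right) taken by each gene, with 1 bar per library. Cbx6 takes a larger share in both KO libraries (40.5% and 25.2%) than in both WT libraries (22.01% and 15.9%), and Pcgf1 takes its smallest share in KO iNKT (3.55%).

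The remaining PRC1 subunits stayed within 1.5-fold between genotypes. Rnf2, the main H2A ubiquitin ligase, was at 40.5 FPKM in KO iNKT, 33.5 in WT iNKT, 26.98 in KO CD44hi and 22.5 in WT CD44hi, with ratios of 1.21 (1.08 to 1.36) and 1.198 (1.11 to 1.29). Its paralogue Ring1 was at 18.1, 15.9, 14.9 and 13.2 FPKM, and Rnf2 exceeded Ring1 by 2.24, 2.11, 1.81 and 1.70 times in that order. Among the PHC genes, whose proteins join PRC1 complexes into larger assemblies, Phc2 was the highest in every library, at 37.2, 34.4, 39.4 and 43.6 FPKM. Phc1 was at 6.60, 4.84, 10.7 and 10.3 FPKM, with a ratio of 1.36 (1.03 to 1.81) in iNKT. Phc3 was at 11.3, 12.2, 12.2 and 17.0 FPKM, with a ratio of 0.718 (0.652 to 0.789) in CD44hi. Of the 14 PRC1 genes, the median log2 difference was 0.14 in the iNKT pair and -0.13 in the CD44hi pair.

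In PR-DUB, the scaffold and its enzyme differed from each other in the CD44hi pair. Asxl1, the cofactor that BAP1 needs for its activity, was at 21.0 FPKM in KO iNKT, 22.5 in WT iNKT, 15.9 in KO CD44hi and 25.4 in WT CD44hi. The KO CD44hi value was the lowest of the 4, and the ratios were 0.933 (0.843 to 1.04) in iNKT and 0.623 (0.591 to 0.657) in CD44hi. Bap1, the deubiquitylase, was at 22.4 FPKM in KO iNKT, 22.4 in WT iNKT, 19.6 in KO CD44hi and 21.1 in WT CD44hi. The median length of the Asxl1 transcripts is 6975 bases, and over all 786 genes of 6000 bases or more the median log2 difference in the CD44hi pair was -0.12, against -0.65 for Asxl1. Asxl2, from the list of other PRC1 and PR-DUB genes, is an exception to the naming rule, since it was not called in either pair. It was at 8.56 FPKM in KO iNKT, 14.9 in WT iNKT, 11.2 in KO CD44hi and 18.9 in WT CD44hi, with ratios of 0.574 (0.504 to 0.652) and 0.594 (0.563 to 0.628).

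Cbx8 and Asxl1 were the 2 genes past 1.5-fold in the CD44hi pair, and the DNA upstream of their starts shows how much they differ in CG dinucleotides, the DNA that the zinc finger of KDM2B binds when it is not methylated. The sequences, from RefSeq on GRCm38.p6, end at the base before the first annotated start of the gene, run 5′ to 3′ on the gene's strand, and have CG (which reads the same on both strands) in capitals. They cover chr11:119040970-119041163 on the minus strand for Cbx8 and chr2:153345580-153345828 on the plus strand for Asxl1.
Cbx8: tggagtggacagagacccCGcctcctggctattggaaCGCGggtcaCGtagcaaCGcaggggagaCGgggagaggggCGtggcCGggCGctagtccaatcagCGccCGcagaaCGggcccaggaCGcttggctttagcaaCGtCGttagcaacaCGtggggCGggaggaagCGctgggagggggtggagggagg
Asxl1: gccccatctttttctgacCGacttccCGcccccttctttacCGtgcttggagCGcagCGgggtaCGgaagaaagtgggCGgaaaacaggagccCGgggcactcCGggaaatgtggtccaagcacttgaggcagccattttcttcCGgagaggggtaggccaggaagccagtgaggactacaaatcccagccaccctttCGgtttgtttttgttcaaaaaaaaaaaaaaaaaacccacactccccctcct
The 194 bases shown of Cbx8 held 18 CG and the 249 bases of Asxl1 held 11. Over the full 250 bases before the RefSeq start, Cbx8 had 22 CG, a count reached by 19.5% of 15706 genes, and Asxl1 had 11, reached by 48.9%. Among the 29 genes with a sequence, the median was 20 CG, beside 10 over all 15706. The files measure no DNA methylation or binding at these stretches.

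Kdm6b, the demethylase that opposes EZH2, differed in opposite directions in the cell types. It was at 14.9 FPKM in KO iNKT, 10.9 in WT iNKT, 17.1 in KO CD44hi and 18.9 in WT CD44hi. The ratio was 1.36 (1.19 to 1.57) in iNKT and 0.905 (0.855 to 0.958) in CD44hi, and neither reached 1.5-fold. The Kdm6b transcript is 6654 bases long, and over all genes of 6000 bases or more the median log2 difference was 0.08 in the iNKT pair and -0.12 in the CD44hi pair, against 0.41 and -0.14 for Kdm6b. Its exons overlap those of Kdm6bos on the opposite strand. Kdm6a, the X-linked enzyme with the same substrate and a gene outside the 39 names, was at 24.0, 22.4, 18.7 and 20.9 FPKM in the same order.

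**Figure D4:**
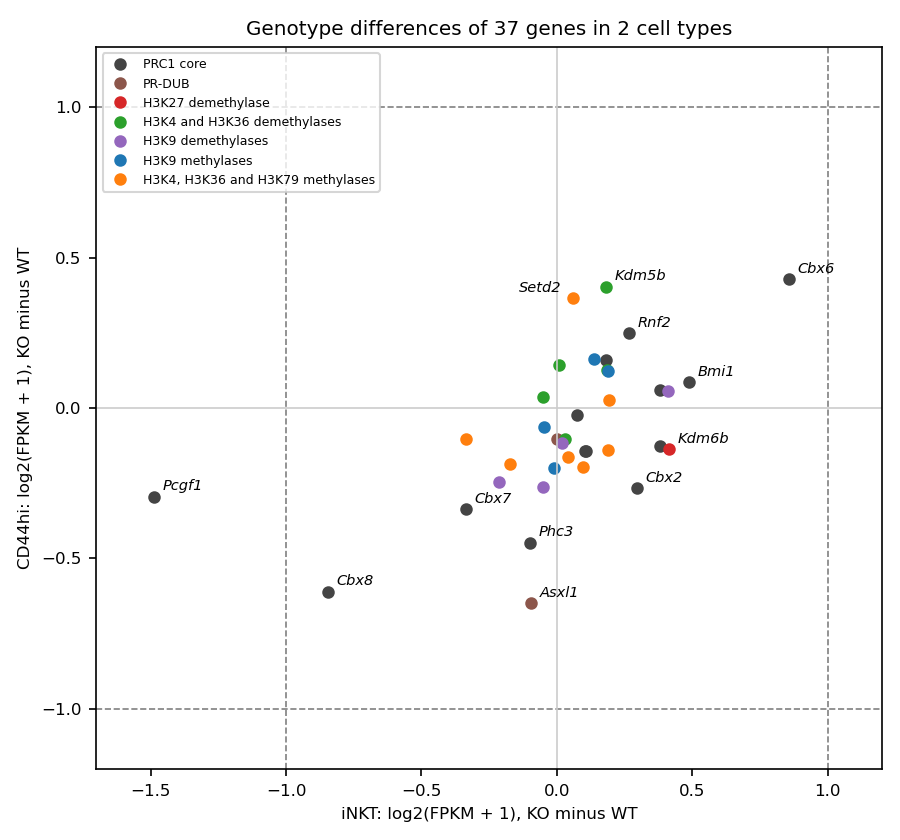
Difference of log2(FPKM + 1), KO minus WT, in iNKT (x axis) and in CD44hi (y axis) for the 37 measured genes, coloured by role, with the 2-fold lines dashed. Pcgf1 is the only point past a line (-1.49 in iNKT), Cbx8 is lower and Cbx6 higher on both axes, and most points lie near 0.

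The demethylases of H3K4 and H3K36 stayed within 1.5-fold between genotypes, with a median log2 difference of 0.03 in the iNKT pair and 0.13 in the CD44hi pair over 5 genes. Kdm2a, an H3K36 demethylase, was at 26.9 FPKM in KO iNKT, 23.5 in WT iNKT, 34.8 in KO CD44hi and 31.8 in WT CD44hi. Kdm2b, the CG-binding partner of PCGF1, was at 20.6, 21.4, 18.9 and 18.4 FPKM, with a ratio of 0.963 (0.851 to 1.09) in iNKT, where Pcgf1 was low. Kdm1a, which removes methyl groups from H3K4 in repressor complexes, was at 28.0, 27.9, 23.3 and 21.0 FPKM. Kdm5a and Kdm5b encode H3K4 demethylases of the KDM5 family. Kdm5a was at 13.8, 13.5, 11.0 and 11.9 FPKM, and Kdm5b at 12.3, 10.7, 9.23 and 6.73, with a ratio of 1.37 (1.26 to 1.49) for Kdm5b in CD44hi.

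Among the 4 H3K9 demethylase genes none reached 1.5-fold between genotypes. Kdm4a was at 23.1 FPKM in KO iNKT, 22.8 in WT iNKT, 24.1 in KO CD44hi and 26.2 in WT CD44hi, and made up 50.1% to 51.4% of the summed FPKM of Kdm4a, Kdm4b and Kdm4c in all 4 libraries. Kdm4b was at 12.2, 8.96, 12.1 and 11.6 FPKM, with a ratio of 1.37 (1.13 to 1.65) in iNKT. Kdm4c was at 10.7, 12.6, 11.4 and 13.7 FPKM, and Kdm3a at 17.9, 18.6, 17.6 and 21.3.

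The H3K9 methylases, which lay down the mark of constitutive and facultative heterochromatin, likewise stayed within 1.5-fold. Ehmt2, which encodes G9a, was the highest at 53.7 FPKM in KO iNKT, 54.1 in WT iNKT, 55.6 in KO CD44hi and 64.0 in WT CD44hi. Its partner Ehmt1 was at 15.1, 13.1, 15.1 and 13.8 FPKM. Setdb1, which silences retroelements, was at 13.2, 13.7, 15.1 and 15.8 FPKM. Suv39h1 exceeded its paralogue Suv39h2 in every library, at 11.5, 10.4, 8.06 and 7.08 FPKM.

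None of the 7 measured H3K4, H3K36 and H3K79 methylase genes reached 1.5-fold between genotypes either, with median log2 differences of 0.06 in the iNKT pair and -0.14 in the CD44hi pair. Setd2, the enzyme of H3K36 trimethylation, was at 16.9 FPKM in KO iNKT, 16.1 in WT iNKT, 31.0 in KO CD44hi and 23.9 in WT CD44hi. Its ratio was 1.05 (0.938 to 1.16) in iNKT and 1.3001 (1.25 to 1.36) in CD44hi. The H3K36 dimethylases Nsd1 and Ash1l were at 15.4, 19.7, 18.9 and 20.4 FPKM and at 8.89, 8.61, 11.5 and 13.0 FPKM. Setd1a, a catalytic subunit of an H3K4 methylase complex, was at 16.4, 18.6, 18.1 and 20.8 FPKM, and Men1, the scaffold menin of another, at 14.7, 13.7, 18.6 and 21.5. Dot1l, the H3K79 methylase, was at 12.1, 10.5, 14.9 and 16.6 FPKM. Smyd3 was low, at 2.82, 2.34, 3.18 and 3.10 FPKM.

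The differences in the 2 cell types, which come from pairs with no library in common, were above 0 in both for 13 of 37 genes, below 0 in both for 11 and opposite for 13. Over all 10453 genes measured in both pairs, these counts were 3189, 2485 and 4779. Across the 37 genes, which are not independent replicates, Pearson's r between the 2 sets of differences was 0.557 and Spearman's rho 0.580. Without Pcgf1, Cbx6 and Cbx8, left out after their values were seen, r was 0.431 and rho 0.466 over 34 genes. Over all 10453 genes measured in both pairs, r was 0.0972 and rho 0.0907. Those genes were not matched to the 37 for level, which limits this comparison. In each pair 35 of the 37 were at 5 FPKM or more in at least 1 library, against 8381 of 10816 genes in the iNKT pair and 8570 of 11352 in the CD44hi pair. The median difference of the effects, iNKT minus CD44hi, was 0.13 over the 37 genes and 0.03 over all.

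The cell types were then compared within each genotype. In KO, 1 of 37 genes was called lower in iNKT than in CD44hi, again Pcgf1 (9.07% of 11469 genes), and 0 were called higher (3.02%). In WT, 0 of 37 were called higher or lower (3.64% and 10.9% of 11216 genes). By the 1.5-fold rule, 4 of 35 genes had higher and 3 had lower values in KO iNKT than in KO CD44hi (11.6% and 14.1% of 8750 genes), and 1 was higher and 5 lower in WT iNKT than in WT CD44hi (11.6% and 16.9% of 8583). The genes higher in KO iNKT were the PRC1 genes Pcgf6 with a ratio of 1.78 (1.41 to 2.22), Cbx6 with 1.57 (1.42 to 1.72), Bmi1 with 1.55 (1.37 to 1.75) and Rnf2 with 1.502 (1.37 to 1.64). PRC1 genes were also among the lower ones given below. Of 14 other PRC1 and PR-DUB genes at 5 FPKM or more, 0 were higher and 0 lower by this rule. Proliferation genes were also higher in KO iNKT than in KO CD44hi, with 8 of 30 called higher, 0 lower and all 30 above 0, and their part in these values was not tested. The genes of the 35 lower in KO iNKT were the PRC1 genes Pcgf1 and Phc1, with 0.615 (0.506 to 0.739) for Phc1, and Setd2 with 0.544 (0.503 to 0.588). In WT, Kdm5b was higher with 1.59 (1.40 to 1.80), and Phc1 with 0.471 (0.372 to 0.591), Kdm6b with 0.578 (0.514 to 0.647), Dot1l with 0.634 (0.563 to 0.712), Men1 with 0.636 (0.538 to 0.749) and Ash1l with 0.660 (0.596 to 0.728) were lower.

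All 7 measured H3K4, H3K36 and H3K79 methylase genes were lower in iNKT in both genotypes, with median log2 differences of -0.28 in KO and -0.54 in WT, beside -0.02 and -0.06 over all measured genes. Several of these transcripts are long, at 11456 bases for Ash1l, 8350 for Setd2 and 6808 for Dot1l. Over all genes of 6000 bases or more, the median log2 difference was -0.07 in KO (792 genes) and -0.29 in WT (776 genes). The iNKT minus CD44hi differences in KO and in WT, again from separate libraries, had a Pearson's r of 0.751 and a Spearman's rho of 0.825 across the 37 genes, and 0.654 and 0.514 across all 10970 measured in both. The part of transcript length in these differences was not tested, and any batch between the iNKT and CD44hi libraries cannot be told apart from cell type.

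**Figure D5:**
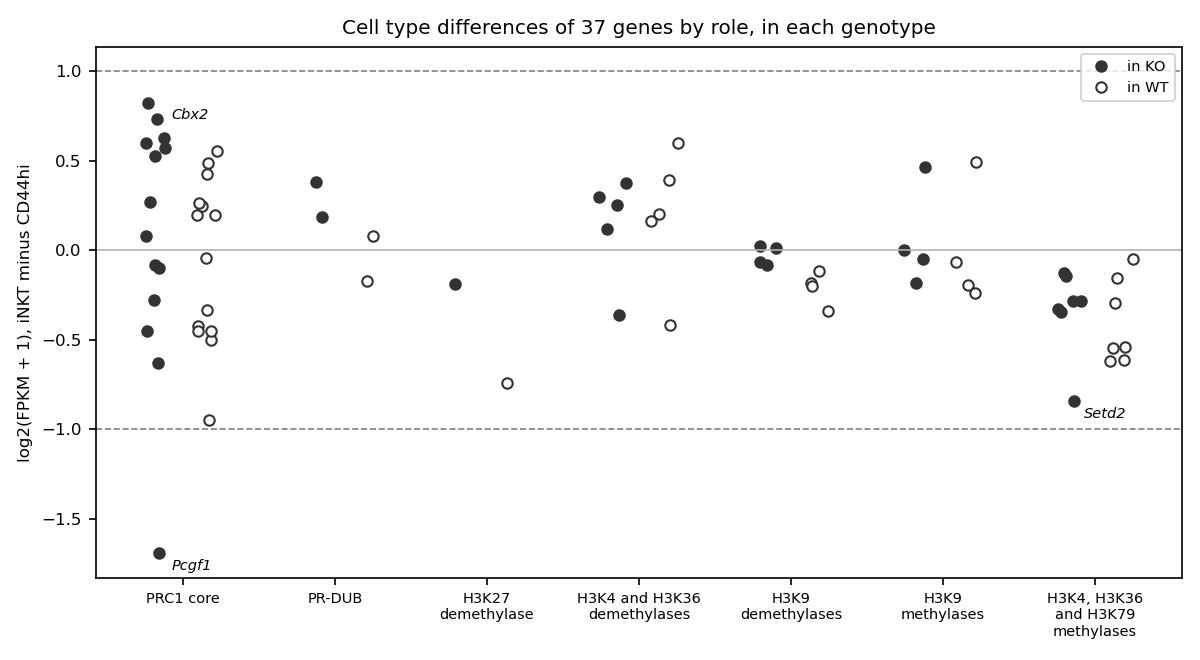
Difference of log2(FPKM + 1), iNKT minus CD44hi, for the 37 measured genes by role, in KO (filled points) and in WT (open points). The H3K4, H3K36 and H3K79 methylase genes all lie below 0, and Pcgf1 lies past the 2-fold line in KO (-1.69).

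Other chromatin genes, in lists written with earlier results of these data known, were set beside the 37. Of 16 measured other PRC1 and PR-DUB genes, 0 were called in the iNKT pair and 1 was called higher in the CD44hi pair, Scmh1, a PRC1-associated protein, at 8.39 FPKM in KO CD44hi and 3.50 in WT CD44hi (5.61 in KO iNKT and 3.44 in WT iNKT). Bcor, a scaffold of the PCGF1 complex singled out after its values were seen, was at 33.2 FPKM in KO iNKT, 16.5 in WT iNKT, 26.2 in KO CD44hi and 28.5 in WT CD44hi, so that it was higher in KO iNKT, by 2.01 (1.81 to 2.23), where Pcgf1 was lower. Of 30 other lysine methylase genes and partners, 0 were called between genotypes in either cell type. Smyd2, also singled out afterwards, was at 22.8 FPKM in KO iNKT, 12.4 in WT iNKT, 11.6 in KO CD44hi and 5.54 in WT CD44hi, with ratios of 1.83 (1.43 to 2.36) and 2.09 (1.75 to 2.52). Of 9 measured arginine methylase genes and 11 PRC2 genes, 0 were called in either pair. By the 1.5-fold rule, 1 of 10 PRC2 genes was higher in KO iNKT and 1 lower (12.8% and 8.9% of all genes). These, also singled out afterwards, were Jarid2 with a ratio of 1.91 (1.67 to 2.21) and Phf1 with 0.494 (0.442 to 0.551). Phf1, at 38.6 FPKM in KO iNKT and 78.2 in WT iNKT, fell just short of a call on the log2(FPKM + 1) scale.

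Of the other lysine demethylases, 0 of 14 were called in the iNKT pair and 2 of 16 were called lower in the CD44hi pair (1.14% of all measured genes). Both are Y-linked. Kdm5d, an H3K4 demethylase, was listed at 0 in KO CD44hi and at 4.16 FPKM in WT CD44hi, and Uty was at 0.0157 and 1.93 FPKM. Kdm5c, the X-linked paralogue of Kdm5d, was at 25.9 FPKM in KO CD44hi and 24.6 in WT CD44hi. Of 10 measured HP1 proteins and H3K9 methylation readers, 1 was called higher and 1 lower in KO iNKT (6.08% and 3.34% of all measured genes). Uhrf1, which maintains DNA methylation, was at 25.6 FPKM in KO iNKT and 6.14 in WT iNKT, and Cdyl2, a chromodomain protein, at 3.91 and 12.7.

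Proliferation genes moved with both comparisons that hold KO iNKT. Against WT iNKT, 9 of 30 measured were called higher and 0 lower in KO iNKT (6.08% and 3.34% of all measured genes). Uhrf1, already counted among the readers above, led them, with Cdc6 (4.59 FPKM in KO and 1.297 in WT), Ccne1 (13.4 and 4.97) and Cdc20 (10.9 and 4.23). Their summed level was 749.9 FPKM in KO iNKT and 442 in WT iNKT, against 441 in KO CD44hi and 449.7 in WT CD44hi, where 0 were called. Their part in the values of the 37 genes was not tested.

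Without strand information, reads of genes that overlap on opposite strands cannot be told apart, and exons of 12 of the 38 genes overlap those of a gene on the opposite strand, among them Asxl1 and Cbx7. The partner of Asxl1 was at 0.770 FPKM in KO CD44hi and 0.930 in WT CD44hi. The partner of Cbx7, Apobec3, was at 123 FPKM in KO iNKT, 122 in WT iNKT, 135 in KO CD44hi and 103 in WT CD44hi. Pcgf1, Cbx6 and Cbx8 had no such partner, and Cbx6 shares exon bases with Npcd on its own strand, which was at 0.594 FPKM in KO iNKT, 0.0460 in WT iNKT, 0.343 in KO CD44hi and 0.162 in WT CD44hi.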

How the data were processed

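RNA was measured in 4 libraries, 1 per group. The authors deposited 1 table of FPKM values per library, per the file headers. Tools listed without roles in the submitters' processing notes are Cufflinks 2.0.2, TopHat 1.3.2 and Bowtie2 2.0.0, with mm10 as build, and the annotation, filters and strand setting are not given in the sources used here. Rows sharing a symbol (240 symbols) were summed, and 786 small RNA symbols were left out. Depth was read from the steps between low FPKM values of single-transcript genes of at least 1500 bases in GENCODE M21 (GRCm38, the assembly called mm10), a method tested on simulated data. Fragments behind a value use the median length of a gene's protein-coding transcripts, which gives wide intervals where short isoforms are annotated. Differences are of log2(FPKM + 1), with calls at 2-fold among genes at 1 FPKM or more. The genes and lists were chosen with earlier results of these data known. Genes given in full are those called, those past 1.5-fold at 5 FPKM or more, and the 2 highest and 2 lowest of each role, and the other genes are given by their values; list genes are named when called, up to 4 per list, with exceptions marked. Alternatives were a pseudocount of 0.1, a minimum of 5 FPKM, no minimum and a rescaling to a median difference of 0. Python 3.11.15, scipy 1.17.1 and pandas 2.3.3 were used. 1 gene of the list of other PRC1 and PR-DUB genes is not reported here.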

Additional observations from a re-analysis of the deposited data

Results flagged for a closer look

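Kdm6b was singled out because its 2 genotype differences ran in opposite directions with both counting intervals clear of 1. Its KO to WT ratio was 1.36 in iNKT (1.19 to 1.57) and 0.905 in CD44hi (0.855 to 0.958). Over all genes of 6000 bases or more, a length that the Kdm6b transcript (6654 bases) exceeds, the median log2 difference was 0.08 in iNKT and -0.12 in CD44hi, against 0.41 and -0.14 for Kdm6b, and the overlapping gene Kdm6bos lies on the opposite strand. The part of either was not tested. The difference between the cell types was not tested, since each ratio rests on 1 library per genotype.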

How the results depend on the processing

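With a pseudocount of 0.1, 1 of 37 genes (Phc1) was called in WT iNKT against WT CD44hi in place of 0, and 2 (Pcgf1 and Cbx2) in KO iNKT against KO CD44hi in place of 1, since a smaller pseudocount shrinks low values less. The other 18 of 20 alternative counts of called genes equalled the reported ones, and all 24 alternative medians moved by less than 0.1 on the log2 scale. The alternatives were those of the methods and, added after the data were seen, leaving out the genes that overlap a gene on the opposite strand. For Pcgf1, Cbx6, Cbx8 and Asxl1, all 24 alternative values stayed on the same side of the 2-fold threshold. No paired analysis was possible because each group has 1 library. Depth limits the iNKT values of Pcgf1 (about 9 fragments in KO and 32 in WT), Suv39h2 (14 and 12) and Smyd3 (18 and 14), and differences between mice or sorts are not measured at all.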

Other observations

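Of 30 measured other lysine methylase genes and partners, 18 had lower values in KO iNKT than in KO CD44hi and 12 had higher ones, and 23 had lower values in WT iNKT than in WT CD44hi and 7 had higher ones. Over all measured genes, 5941 of 11469 were lower in KO iNKT than in KO CD44hi, and 6223 of 11216 lower in WT iNKT than in WT CD44hi. Smyd2 was higher in iNKT, by 1.96 in KO and 2.24 in WT as ratios of FPKM. Among the lower genes were 3 of the H3K4 methylase family. Mll1 was at 16.0 FPKM in KO iNKT and 31.0 in KO CD44hi, and at 16.7 in WT iNKT and 35.4 in WT CD44hi. Mll2 was at 16.6 and 32.8 FPKM in the KO libraries and 22.4 and 38.4 in the WT libraries, and Mll3 at 12.7 and 20.9 in the KO libraries and 13.0 and 19.5 in the WT libraries. The shared subunit Wdr5 was at 18.3 FPKM in KO iNKT and 18.7 in KO CD44hi, and at 17.4 in WT iNKT and 17.4 in WT CD44hi. These values were picked after they were seen, and the length shift given for genes of 6000 bases or more stands beside them.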
